A study of Mus musculus with 6 samples.

Results

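The genes described here are transcription regulators of brown fat identity: Prdm16, Ebf2, Ebf3, Zic1, Lhx8, Tbx15, Ehmt1, Ctbp1 and Ctbp2. They were taken as every probe set whose platform annotation names only 1 of these 9 symbols, which gave 19 of the 45037 probe sets on the array, and each had a value on all 6 arrays. The cells were mouse brown fat cells immortalised with the SV40 large T antigen and differentiated for 7 days, in 3 groups of n = 2 arrays each. Wild-type cells were given a passage number, 4, and no siRNA is named for them. Knockout-control cells lack PGC-1α (PGC-1alpha -/-) and express a control siRNA, and knockdown cells lack PGC-1α and express an siRNA against PGC-1β. The coactivators PGC-1α (Ppargc1a) and PGC-1β (Ppargc1b) raise the transcription of mitochondrial and thermogenic genes. The sources used here do not say how many clones or mice each line came from, or whether the arrays of a group came from separate cultures, so the p-values measure the spread between these arrays only. Genotype, cell line and siRNA vector cannot be told apart in any comparison with wild type. The lines also differed on probe set 1417210_at of the Y-linked transcript Eif2s3y, at 872 and 961 on the wild-type arrays and at 6.25 and 5.13 on the knockout-control and knockdown array with a value. A dimmer Eif2s3y probe set, 1431642_at, showed no such difference, at 52.6 on the wild-type array with a value and at 24.9 to 54.5 on the 3 knockout arrays with one.

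Prdm16 is a zinc finger protein that drives the brown rather than the muscle fate in precursor cells and keeps brown adipocytes brown. It has no single mode of action: with C/EBPβ and the PGC-1 coactivators it raises brown fat genes, and with the corepressors CtBP1 and CtBP2 it silences white fat genes. Ehmt1, a histone H3 lysine 9 methyltransferase, binds Prdm16 and stabilises it. Ebf2 marks committed brown precursors and opens brown fat enhancers for PPARγ, and Ebf3 is its close relative in the early B cell factor family. Zic1, Lhx8 and Tbx15 are developmental transcription factors used as markers of brown fat depots, with Tbx15 also present in some white depots.

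The siRNA and the knockout were read first. Ppargc1b had intensities of 2849.5 and 3162 in wild type, 1862 and 2302 in knockout-control and 534 and 224 in knockdown cells. Of 5 probe sets of Ppargc1a, 3 were called lower in knockout-control than in wild type, and whether the deletion removes the exons they read is not given in the sources used here. Ucp1, the heat-making uncoupling protein that defines brown fat, stood at 4488 and 4761, at 4199 and 3725, and at 156 and 105 in the same order of groups. A value was called when its p from limma, adjusted by Benjamini-Hochberg over all probe sets tested, was under 0.05, and every adjusted p below comes from that fit. Fold changes are on the scale of log2(intensity + 32), which understates the change of dim probe sets. Probe sets whose mean of log2(intensity + 32) over the arrays lay under 7.61, which is the value of an intensity of about 163.6, were not tested, which left 17 of the 19 members. Some tested members passed this filter through their brighter groups: group means under 163.6 were found for Prdm16 1440745_at in both knockout groups, for Prdm16 1440870_at, Ebf3 1428349_s_at and Ebf3 1452751_at in knockdown cells, and for Tbx15 1422195_s_at in wild type. Such members had to differ between groups to be tested, so the counts of called members are given as a description.

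Between wild-type and knockdown cells, which differ in both coactivators, Prdm16, Ebf2, Ebf3 and Zic1 fell and Tbx15 rose. Of the 17 tested member probe sets, 10 were called lower and 2 higher in knockdown cells, and 5 did not pass. In RNA from whole cultures, fewer cells of a kind and less RNA per cell cannot be told apart. Over all 22715 probe sets tested in that comparison 9.93% were called, 6.05% of them lower and 3.88% higher, against 70.6% of the members tested. The tested members had a median log2 fold change of -0.76, against -0.03 over all tested probe sets. The called members belonged to 5 of the 9 genes, and the corepressor genes Ctbp1 and Ctbp2 and the methyltransferase gene Ehmt1 were not among them. The count was 6 without wild-type array 1 or without wild-type array 2, and it was also 6 when no dim probe set was left out. Those 6 with no filter were Prdm16 1440870_at, the 3 probe sets of Ebf2, Tbx15 1422195_s_at and Lhx8, while the other 7 calls were lost (adjusted p = 0.055 to 0.151). In that setting 1.81% of all probe sets were called. Over all 19 members 14 were lower and 4 higher in knockdown cells with no overlap between the groups, where 54.6% of all probe sets with complete values did not overlap (30.0% lower and 24.6% higher). At an unadjusted p under 0.05 there were 13 members, against 25.3% of all tested probe sets.

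**Figure D1:**
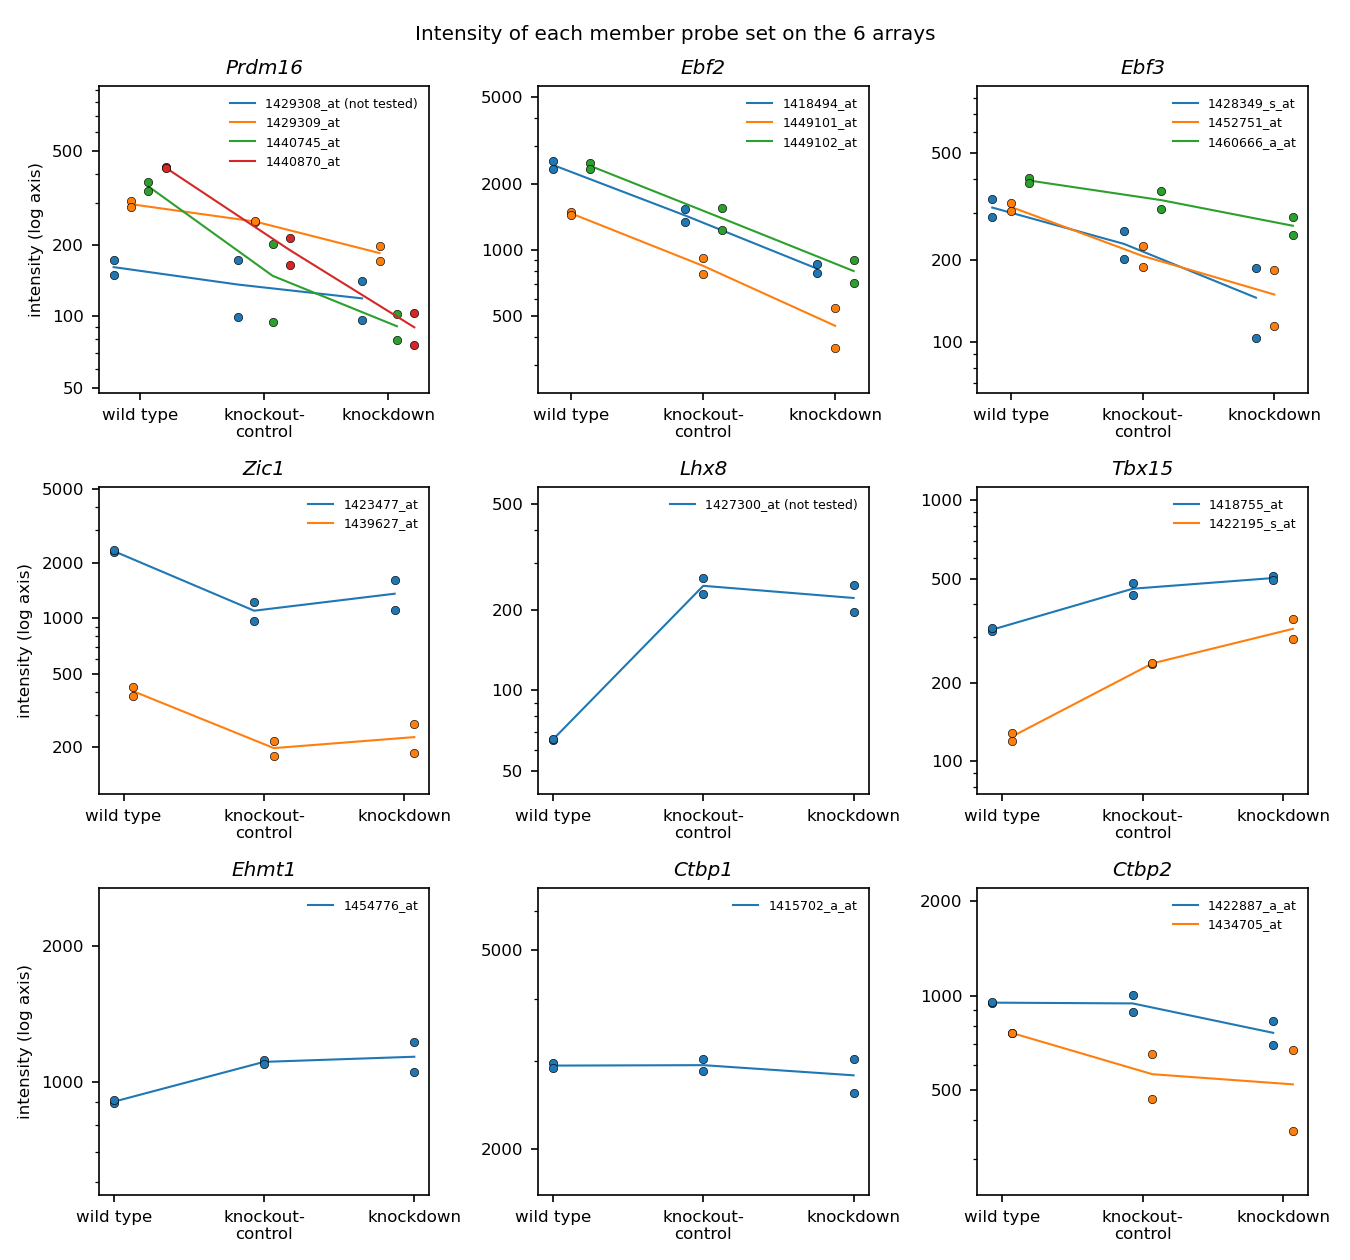
Intensity (log axis) of the 19 member probe sets in wild-type, knockout-control and knockdown cells. Each point is 1 array, each line joins the group means of 1 probe set, and the points of probe sets are set side by side within a group. The 3 groups of the Ebf2 probe sets do not overlap, both knockout groups of Zic1 lie below wild type, and Lhx8 stands at 65.4 and 65.5 in wild type and above 190 on the other 4 arrays.

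Promoters are shown for members that differed between the lines and have an entry in the RefSeq table used here (GRCm38.p6), to set the lowered genes Prdm16, Ebf3 and Zic1 beside Lhx8, whose signal was higher in the knockout lines. The table had entries for 7 of the 9 members, 8 windows in all, and Ebf2 and Tbx15 were not matched. Each line gives the 250 bases before the annotated start, 5′ to 3′ on the strand of the gene. Capitals mark CCCNNGGG, the core of the palindrome that EBF proteins bind, or CCAAT, the box bound by NF-Y, each searched on both strands.
Prdm16, chr4:154636874-154637123, minus strand: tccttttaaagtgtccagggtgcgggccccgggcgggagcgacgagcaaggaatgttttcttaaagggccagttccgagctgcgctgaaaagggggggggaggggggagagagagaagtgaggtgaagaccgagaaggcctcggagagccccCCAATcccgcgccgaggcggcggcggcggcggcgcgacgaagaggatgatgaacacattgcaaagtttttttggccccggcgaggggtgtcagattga
Ebf3, chr7:137314446-137314695, minus strand: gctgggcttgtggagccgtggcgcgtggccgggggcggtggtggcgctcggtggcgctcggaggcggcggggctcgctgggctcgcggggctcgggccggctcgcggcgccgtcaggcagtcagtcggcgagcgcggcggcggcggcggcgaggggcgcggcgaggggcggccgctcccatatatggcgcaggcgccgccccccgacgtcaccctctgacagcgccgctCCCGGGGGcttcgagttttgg
Zic1, chr9:91365769-91366018, minus strand: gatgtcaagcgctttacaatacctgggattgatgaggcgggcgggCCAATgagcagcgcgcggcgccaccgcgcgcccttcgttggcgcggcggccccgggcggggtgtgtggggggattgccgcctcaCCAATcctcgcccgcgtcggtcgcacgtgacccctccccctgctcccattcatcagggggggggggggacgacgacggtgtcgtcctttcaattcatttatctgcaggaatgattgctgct
Lhx8, chr3:154330561-154330810, minus strand: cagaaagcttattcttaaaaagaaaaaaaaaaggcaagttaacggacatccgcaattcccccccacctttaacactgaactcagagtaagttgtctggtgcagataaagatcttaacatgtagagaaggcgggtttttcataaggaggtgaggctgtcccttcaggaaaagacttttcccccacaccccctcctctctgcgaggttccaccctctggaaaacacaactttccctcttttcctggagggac
The EBF core was found in 1 of the 8 member windows, that of Ebf3, 21 to 14 bases before the start, and in 11.8% of all 32851 windows of this length. The CCAAT box was found in 4 member windows and in 33.8% of all windows. Those 4 were the window of Zic1 with 2 matches, that of Prdm16 with 1, and the windows of Ctbp2, which was not called. The letters AAGGTCA, the site of the estrogen-related receptors through which PGC-1 proteins act, were in 0 of the 8 windows and in 4.08% of all. The windows of Ebf3, Zic1 and Prdm16 held 80.0%, 66.0% and 62.4% G and C, against 46.0% for Lhx8 and a median of 52.4% over all windows. Of the members tested and not called, Ctbp1 held 77.6%, Ehmt1 69.2%, and the windows of Ctbp2 42.4% and 51.6%. These matches are of letters only, and binding was not measured.

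Prdm16 was read by 4 probe sets, whose differences were unequal in size. Probe set 1440870_at stood at 425 and 420.3 in wild type, 165 and 215 in knockout-control, and 104 and 76.1 in knockdown cells. The groups did not overlap, and knockdown cells kept 21.3% of the wild-type mean. This probe set fell 3.75-fold between wild type and knockdown cells (log2 fold change -1.91 ± 0.18 SE, adjusted p = 0.000633), and it also fell between wild type and knockout-control (-1.04 ± 0.18, adjusted p = 0.0121). Between knockout-control and knockdown cells it stood at -0.86 ± 0.18 (95% interval -1.27 to -0.45) and did not pass (adjusted p = 0.0785). Probe set 1440745_at stood at 339 and 367, at 202 and 94.6, and at 79.3 and 103 in the same order. Its knockout-control arrays were far apart and overlapped the knockdown arrays, while both groups lay below wild type. Between knockout-control and knockdown cells it stood at -0.49 ± 0.26 (adjusted p = 0.482). It fell 3.14-fold in knockdown cells (-1.65 ± 0.26, adjusted p = 0.00688) and 2.23-fold in knockout-control cells (-1.16 ± 0.26, adjusted p = 0.036). With no filter on dim probe sets both of these calls were lost (adjusted p = 0.055 and 0.133), and 1440870_at kept the first (adjusted p = 0.013) and lost the second (adjusted p = 0.0681). The fall between wild type and knockout-control was lost for 1440745_at without wild-type array 1, wild-type array 2 or knockout-control array 2 (highest adjusted p = 0.176) and for 1440870_at without either wild-type array or without knockout-control array 1 (highest adjusted p = 0.114).

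The other pair of Prdm16 probe sets differed less between the groups. Probe set 1429309_at, which has the highest mean log2 value of the 4, stood at 305 and 289 in wild type, 249.6 and 252 in knockout-control and 199 and 171 in knockdown cells. Its groups did not overlap, but it was called only between wild type and knockdown cells (1.52-fold, -0.60 ± 0.15, adjusted p = 0.0387), a call that held without knockdown array 1 and was lost without any other array. Between wild type and knockout-control it stood at -0.22 ± 0.15 (95% interval -0.56 to 0.13), and between knockout-control and knockdown cells at -0.39 ± 0.15 (adjusted p = 0.323). Probe set 1429308_at, under the filter and not tested, read 149.7, 173, 173, 99.9, 96.8 and 141 on the 6 arrays, with knockout-control overlapping both other groups. Knockdown cells thus kept between 21.3% and 73.8% of the wild-type signal depending on the probe set. Which part of the Prdm16 transcript each probe set reads is not given in the sources used here.

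Ebf2 gave nearly the same pattern on its 3 probe sets. Probe set 1418494_at stood at 2557 and 2345 in wild type, 1349 and 1537 in knockout-control and 865 and 785 in knockdown cells. Probe set 1449102_at read 2509 and 2355, then 1235 and 1567, then 899.5 and 707. Probe set 1449101_at read 1499 and 1443, then 777 and 918, then 547 and 356. On each of the 3, every wild-type array lay above every knockout-control array, and every knockout-control array above every knockdown array. Knockout-control cells kept 57.6% to 58.9% of the wild-type mean and knockdown cells 30.7% to 33.7%. All 3 fell between wild type and knockdown cells, with log2 fold changes of -1.53 ± 0.16, -1.57 ± 0.18 and -1.66 ± 0.21 (adjusted p = 0.000859, 0.0017 and 0.00218), and each kept that call in all 6 fits that leave out an array. The 3 probe sets read the same gene and are not independent measurements of it.

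Differences of similar size stood in both steps for Ebf2. Between wild type and knockout-control, 1418494_at and 1449102_at fell 1.69-fold and 1.73-fold (adjusted p = 0.0252 and 0.0384), calls that held without either knockdown array and were lost without any other, and 1449101_at stood at -0.78 ± 0.21 and did not pass (adjusted p = 0.0615). Between knockout-control and knockdown cells the 3 values were -0.78 ± 0.16, -0.78 ± 0.18 and -0.89 ± 0.21, close in size to the first step, and none passed (adjusted p = 0.0693, 0.106 and 0.102). The 95% interval of the second step for 1418494_at ran from -1.14 to -0.43. Without knockdown array 1 each of the 3 passed in the second step, and after quantile normalization each passed as well.

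Ebf3 resembled Ebf2 in order but with smaller differences from wild type. Probe set 1452751_at stood at 328 and 305 in wild type, 189 and 227 in knockout-control and 185 and 114 in knockdown cells. Probe set 1428349_s_at read 339 and 290.3, then 203 and 258, then 188 and 103. On both the 3 groups did not overlap, although knockdown array 1 lay close to knockout-control array 1. Between wild type and knockdown cells they fell to 47.2% and 46.3% of the wild-type mean (adjusted p = 0.0211 and 0.0311), with a log2 fold change of -0.97 ± 0.21 for 1452751_at. Both passed the filter through their brighter groups, as their knockdown means of 149.5 and 145.55 lay under 163.6. With no filter on dim probe sets both of these limma calls were lost (adjusted p = 0.0972 and 0.124). Without either wild-type array the call of 1452751_at was lost (highest adjusted p = 0.137), and that of 1428349_s_at was lost without either wild-type array or without knockdown array 2 (highest adjusted p = 0.179). Probe set 1460666_a_at stood at 404 and 388, at 361 and 309, and at 290.0 and 248, and with all arrays did not pass in any comparison (-0.51 ± 0.16 between wild type and knockdown cells, adjusted p = 0.0791). That value ran from -0.61 to -0.41 with each array left out. With all arrays neither step alone was called for a probe set of Ebf3. With each array left out, 1452751_at ran from -0.66 to -0.43 between wild type and knockout-control. In the same fits 1428349_s_at ran from -0.95 to -0.25 between knockout-control and knockdown cells. Whether each of these passed depended on the array left out.

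Zic1 fell in both knockout groups and was not called between the siRNAs. Probe set 1423477_at stood at 2289 and 2341 in wild type, 969.7 and 1230.3 in knockout-control and 1607 and 1113 in knockdown cells. Probe set 1439627_at read 380.1 and 425, then 179 and 217, then 268 and 187. Both knockout groups lay below wild type on both probe sets and overlapped each other. In knockout-control cells the 2 probe sets fell 2.09-fold and 1.89-fold (-1.06 ± 0.21 and -0.92 ± 0.19, adjusted p = 0.0195 and 0.0261), to 47.5% and 49.2% of wild type, and both calls were lost without either wild-type array or without knockout-control array 1, the second also without knockout-control array 2. In knockdown cells they were 1.71-fold and 1.69-fold below wild type (adjusted p = 0.0467 and 0.0402), calls that each held without knockdown array 1 and were lost without any other array. Between knockout-control and knockdown cells the differences were 0.28 ± 0.21 and 0.16 ± 0.19, with 95% intervals from -0.18 to 0.75 and from -0.28 to 0.60, and the second turned to -0.07 without knockdown array 1.

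Lhx8 and Tbx15 ran the other way. Lhx8, a LIM homeobox gene, was read by 1 probe set at 65.4 and 65.5 in wild type, 230.3 and 264 in knockout-control and 249 and 196 in knockdown cells. Every array of the knockout lines lay above both wild-type arrays, with means of 377% and 340% of wild type, and the 2 knockout groups overlapped. Its mean over the arrays lay just under the filter, at 7.57 against 7.61 on the log2 scale, so it was not tested. With no filter it had log2 fold changes of 1.52 ± 0.18 and 1.38 ± 0.18 against wild type (adjusted p = 0.0188 and 0.0242) and of -0.14 ± 0.18 between the siRNAs (adjusted p = 0.838).

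Tbx15, a T-box gene, was read by 2 probe sets. Probe set 1422195_s_at stood at 129 and 120.1 in wild type, 237 and 238 in knockout-control and 350.3 and 294 in knockdown cells, so the groups stood in ascending order with no overlap. It rose 2.26-fold between wild type and knockdown cells (1.17 ± 0.15, adjusted p = 0.00293), a call kept in all 6 fits without an array, and 1.72-fold between wild type and knockout-control (0.78 ± 0.15, adjusted p = 0.0206), a call that held without either knockdown array and was lost without any other. Probe set 1418755_at stood at 315 and 325, at 435 and 483, and at 512 and 497, in the same order and again without overlap. It rose 1.52-fold between wild type and knockdown cells (0.61 ± 0.15, adjusted p = 0.0347), a call that held without either knockdown array and was lost without any other, and its 0.48 ± 0.15 in the first step did not pass (adjusted p = 0.0975). In the siRNA step the values were 0.39 ± 0.15 and 0.13 ± 0.15 for 1422195_s_at and 1418755_at, and neither passed (adjusted p = 0.331 and 0.777).

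With all 6 arrays the cofactors of Prdm16 were not called in any comparison. Ctbp1 stood at 2973 and 2899 in wild type, 2858 and 3026 in knockout-control and 3029 and 2585 in knockdown cells, with the 3 groups overlapping. Its difference between wild type and knockdown cells was -0.07 ± 0.15 (95% interval -0.42 to 0.28, adjusted p = 0.83). Ehmt1 stood at 897 and 909, at 1120.4 and 1093, and at 1223 and 1049.9. Both knockout groups lay above wild type without overlap, at 0.28 ± 0.15 and 0.32 ± 0.15 (95% interval -0.03 to 0.66 for the latter), and neither difference passed (adjusted p = 0.335 and 0.233). Ctbp2 was read by 1422887_a_at at 946 and 954, 886 and 1003, and 827 and 694, and by 1434705_at at 762 and 758, 469 and 653, and 672 and 369. The wild-type arrays of 1434705_at were close together and those of both knockout groups far apart. Its difference between wild type and knockdown cells was -0.57 ± 0.26 (adjusted p = 0.213) and that of 1422887_a_at -0.31 ± 0.16 (adjusted p = 0.262), so falls as large as 1.17 and 0.68 on the log2 scale lay inside the 95% intervals of -1.17 to 0.02 and -0.68 to 0.05. The value of 1434705_at moved to -0.98 without knockdown array 1, where it passed (adjusted p = 0.0145), and to -0.17 without knockdown array 2.

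**Figure D2:**
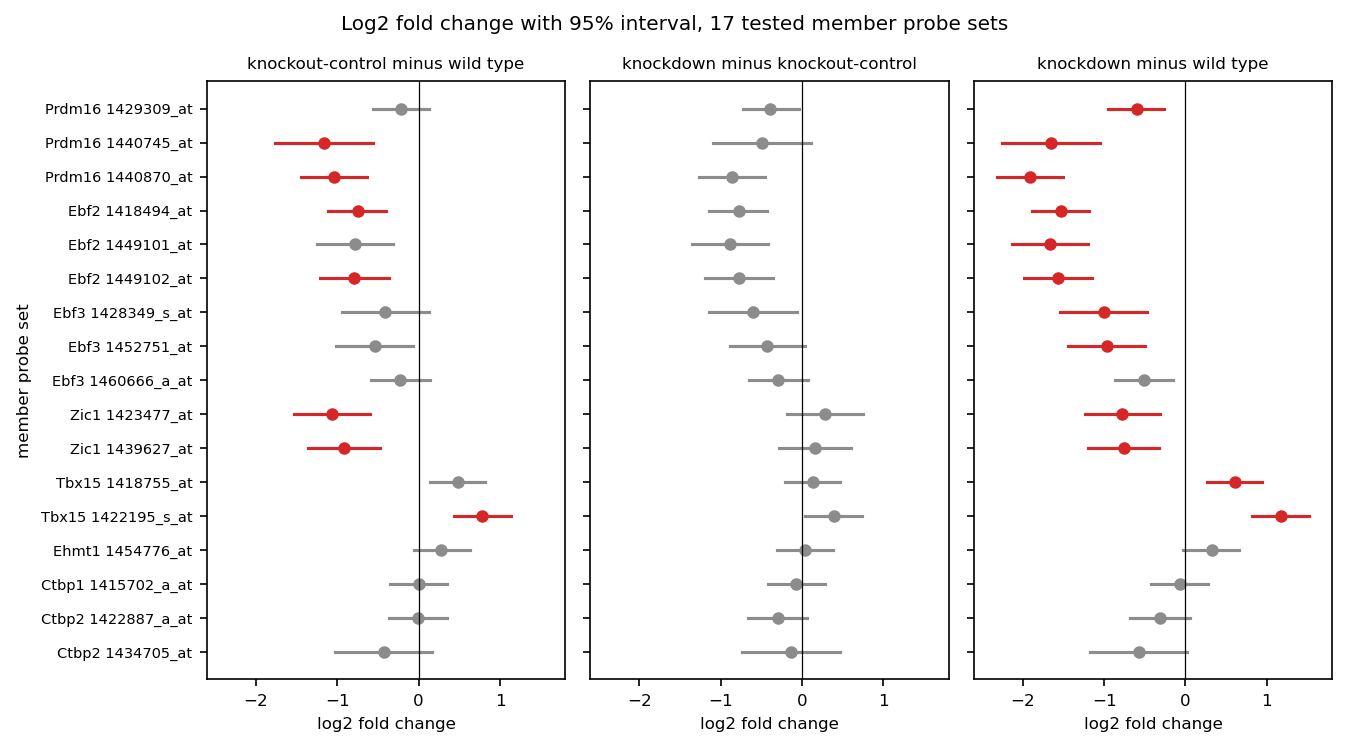
Log2 fold change (points) with its 95% interval (bars) for the 17 tested member probe sets in the 3 comparisons, from limma on log2(intensity + 32). Red marks an adjusted p under 0.05 and grey the rest; the called members number 7 between wild type and knockout-control, 0 between knockout-control and knockdown, and 12 between wild type and knockdown.

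In the step from wild type to knockout-control, 6 tested member probe sets were called lower and 1 higher, or 41.2% against 6.32% of all 22723 probe sets tested (3.80% lower and 2.52% higher). With 1 probe set per gene 2 of 8 members were called, against 6.05% of all genes. The 7 called probe sets were those of Prdm16, Ebf2, Zic1 and Tbx15. Without wild-type array 1 or 2 the count was 0, leaving out knockout-control array 1 gave 1 and array 2 gave 2, and with no filter on dim probe sets it was 1, that of Lhx8, so that all 7 of these calls were lost (adjusted p = 0.0681 to 0.133). With no filter 1.41% of all probe sets were called. Where an array was left out, the single array left in its group was taken to vary like the other groups. Over all 19 members the 2 groups did not overlap for 16, of which 12 were lower in knockout-control, and 58.3% of all probe sets with complete values did not overlap either (30.9% lower and 27.4% higher).

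In the step from knockout-control to knockdown cells, which share the genotype, 0 of the 17 tested members passed in limma, against 0.625% of 22719 probe sets (0.409% lower and 0.216% higher). At an unadjusted p under 0.05 there were 7 members, against 13.0% of all probe sets. Those 7 were the 3 probe sets of Ebf2, 2 of Prdm16, 1428349_s_at of Ebf3 and 1422195_s_at of Tbx15, and the last was the only 1 of them that stood higher. Of all 19 members 9 were lower and 2 higher in knockdown cells with no overlap, against 37.4% of probe sets in either direction (20.1% lower and 17.3% higher). The lowest adjusted p was 0.0693, and 5 members passed without knockdown array 1. Effects of the siRNA on other transcripts cannot be told apart from the loss of PGC-1β, since 1 siRNA against it was used.

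The 2 knockdown arrays differed in level. Of the 19 members 17 were lower on knockdown array 2 than on array 1, as were 75.4% of all tested probe sets. The median log2 difference between these arrays was -0.24 for the members and -0.22 for all tested probe sets, and -0.17 and -0.15 after the arrays were scaled to 1 median. Ppargc1b and Ucp1 were also lower on array 2, as given above. In knockout-control 4 of the 19 members were lower on array 2, against 30.7% of all. The part of this difference in the results of the knockdown group was not tested; with the arrays scaled to 1 median the called members between wild type and knockdown cells numbered 12, as without scaling.

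**Figure D3:**
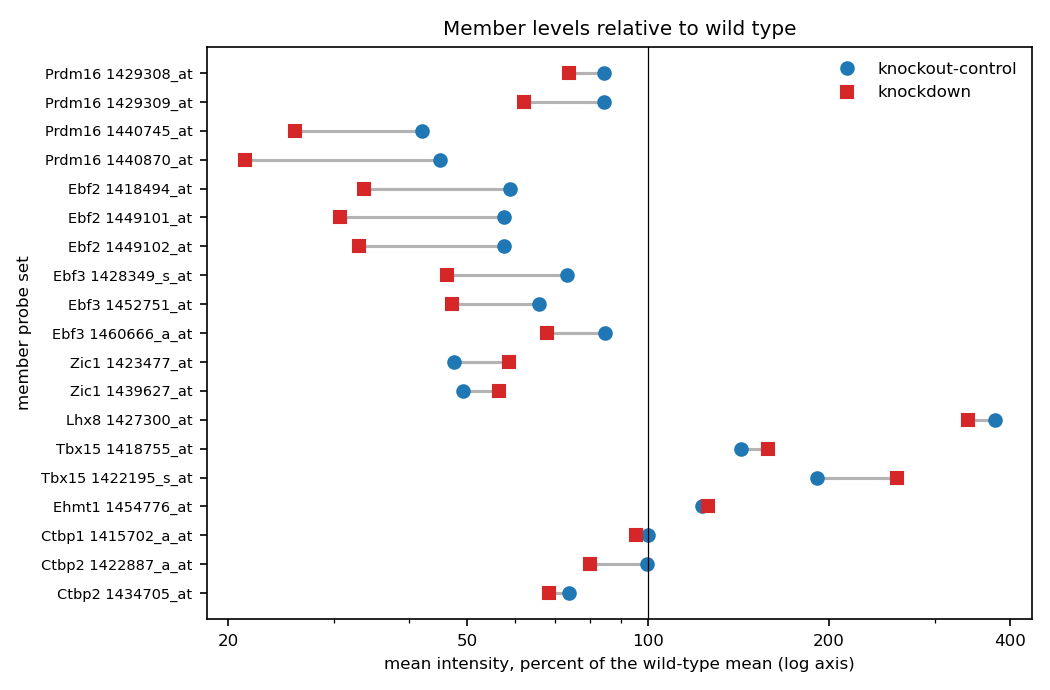
Mean intensity of each member probe set in knockout-control (circles) and knockdown cells (squares) as a percent of its wild-type mean, on a log axis with a line at 100%. The probe sets of Ebf2 sit at 57.6% to 58.9% and then at 30.7% to 33.7%, those of Zic1 at 47.5% to 49.2% and then 56.5% to 58.7%, and Ctbp1 near the line in both groups.

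For each member gene with a call, the genes most like it were those with the highest Pearson r across the 6 arrays, among 13343 genes with 1 probe set each. These r-values ran from 0.997 to 0.999 and are a description over n = 6 arrays of 3 groups. Ebf2 was matched best by Oplah, Trp53inp2 and Gstk1, and Prdm16 (1429309_at) by Oip5os1, Pyurf and Ndufaf4. Ebf3 was matched by Rtbdn, Ppip5k1 and Pard3b, Zic1 by Selenom, Kansl2 and Tmem30a, and Tbx15 by Gm38462, Zfas1 and Cyp2c23. Between 228 and 502 genes had an r above 0.95 with a given member, the most for Zic1, so many genes share each pattern.

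Other regulators known to build, partner or oppose the brown fat programme were taken from a list, called partner regulators here. Of 46 tested partner regulators 5 were called higher and 0 lower in knockout-control, with 2.48% and 3.38% of all genes called in these directions. Zbtb16, a zinc finger factor of brown adipocytes, rose 4.99-fold, the C/EBP family member Cebpd 5.68-fold, Klf15 2.18-fold and the retinoid receptor Rxra 1.79-fold. In the siRNA step 2 fell, the target Ppargc1b (5.53-fold) and Esrra, an estrogen-related receptor that PGC-1 proteins coactivate (2.26-fold), with 0.440% of all genes called lower. Between wild type and knockdown cells 5 partner regulators were called higher and 4 lower, with 3.74% and 5.60% of all genes called. These 9 calls became 3 with no filter. Of 22 genes of CtBP and EHMT complexes 0 were called by limma in either step (3 in each at an unadjusted p under 0.05, and 1 adjusted call in the step to knockout-control after quantile normalization). Of these 22 only the deacetylase Hdac1 was called between wild type and knockdown cells (1.78-fold lower), a call that was lost without wild-type array 1 or 2. In that comparison the list had 3 calls after quantile normalization, 2 after median scaling, 4 without knockdown array 2 and 0 with no filter. Of 15 tested paralogues of the members, among them Ebf1, Ehmt2, Mecom and Zic5, 0 were called in limma in any comparison, with 5.86%, 0.645% and 9.34% of all genes called in the step to knockout-control, in the siRNA step and between wild type and knockdown cells; at an unadjusted p under 0.05 there were 2, 1 and 3 paralogues. After quantile normalization 1 and 2 paralogues were called in knockout-control and in knockdown cells against wild type. The call counts of the partner list ran from 2 to 8 in knockout-control against wild type, and from 0 to 3 in the siRNA step, when each array was left out, and with no filter they were 2 and 0.

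Genes downstream of these factors were called in both directions. Of 23 tested brown fat selective targets, 3 were higher and 7 lower in knockdown than in wild-type cells (median -0.08; 3.74% and 5.60% of all genes), and in the siRNA step 1 was higher and 5 lower (0.205% and 0.440% of all genes). The 6 calls of the siRNA step became 2 without either knockout-control array, 3 without either wild-type array, 8 without knockdown array 1, and 2 with no filter. Ucp1 fell 24.9-fold in that step, Dio2, a deiodinase, 4.93-fold, Cox7a1, a cytochrome oxidase subunit, 2.46-fold and the lipid droplet gene Cidea 2.28-fold. The gene that rose was Pdk4, a kinase of pyruvate dehydrogenase (2.28-fold), named after its value was seen. In knockout-control against wild type, 4 were higher and 5 lower, against 2.48% and 3.38% of all genes. Elovl3, an elongase, rose 7.12-fold, Pank1 3.63-fold and Mpzl2 2.12-fold, and Nrg4, a secreted growth factor of brown fat, fell 2.10-fold. The other target that rose was Kcnk3, by 1.87-fold, and the others that fell were Plin5, Slc25a20, Letmd1 and Elovl6, by 1.53-fold to 1.88-fold. Kcnk3 and these others that fell were named after their values were seen. These 9 calls became 2 without wild-type array 1 or 2 or knockout-control array 1, 4 without knockout-control array 2, and 3 with no filter. Of 13 tested white fat selective genes, several of which Prdm16 represses with CtBP proteins, 5 were higher and 3 lower in knockdown than in wild-type cells (median 0.27), and the 8 calls became 5 without wild-type array 1 and 4 without wild-type array 2. The angiotensinogen gene Agt rose 15.7-fold and Igfbp3 3.07-fold, and the homeobox gene Hoxc8 fell 14.4-fold and Sncg 2.86-fold. Of all genes 3.74% were called higher and 5.60% lower in that comparison. In knockout-control against wild type 3 of the 13 were already higher and 3 lower, against 2.48% and 3.38% of all genes. There Agt rose 11.5-fold, and Hoxc8 fell 14.0-fold, Rarres2 5.24-fold and Sncg 3.2-fold. Of the white fat genes 0 passed in limma in the siRNA step, 5 had an unadjusted p under 0.05, and 2 passed after quantile normalization.

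**Figure D4:**
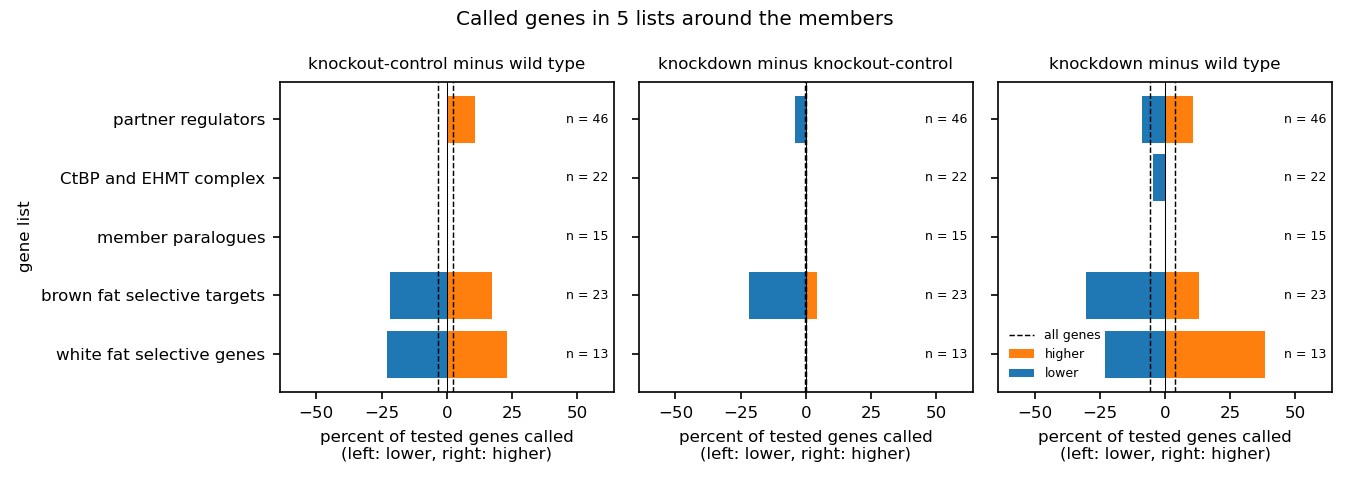
Percent of the tested genes of 5 lists called higher (right, orange) or lower (left, blue) in each comparison, with dashed lines at the percent of all genes called. The numbers at the right give the tested genes of each list. Brown fat selective targets extend to both sides in every comparison. White fat selective genes do so in both comparisons with wild type and have no call between knockout-control and knockdown. The member paralogues have no call.

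Cells of another kind were looked for beside these results. Of 12 tested general adipocyte markers 0 were called in limma between wild type and knockdown cells (3 at an unadjusted p under 0.05, and 2 adjusted calls after quantile normalization), and the summed intensity of the 11 with a value on every array ran from 72532 to 82906. In knockout-control against wild type Agpat2 fell 1.75-fold and Cidec rose 1.78-fold (adjusted p = 0.0365 and 0.0398), calls that were both lost with no filter. Of 11 tested preadipocyte and fibroblast markers 3 were called higher and 0 lower in knockdown than in wild-type cells, against 3.74% and 5.60% of all genes. The 3 were Dlk1 (3.66-fold), Klf2 (3.48-fold) and Pdgfra (1.87-fold). The other 8 did not pass, among them Pdgfrb at a log2 fold change of -0.93 ± 0.26 (adjusted p = 0.0546). In knockout-control against wild type 2 of the 11 were higher, Klf2 (5.64-fold) and Gata3 (1.68-fold), against 2.48% of all genes. In the siRNA step Dlk1 was higher (3.53-fold), against 0.205% of all genes. The 13 genes of the list with a probe set summed to 14655 and 14763 in wild type, 14896 and 15994 in knockout-control and 16776 and 17068 in knockdown cells. Vim, with group means from 9374 to 10306, was the largest part of these sums. Whether such cells have a part in the fall of Prdm16, Ebf2 and the other members was not tested. Of 18 muscle markers 7 lay above the filter, with 0 called in limma and 1 at an unadjusted p under 0.05 between wild type and knockdown cells, and the 14 with a value on every array summed to between 2773 and 3247. Of the macrophage and endothelial markers 5 of 8 and 2 of 6 lay above the filter, and 0 were called in limma, also at an unadjusted p under 0.05. Among 8 tested beige fat markers, Shox2 was higher (2.23-fold) and the amino acid carrier Slc36a2 lower (1.76-fold) in knockdown than in wild-type cells. Of all genes 3.74% and 5.60% were called in these directions, and with no filter the list had 1 call there. Shox2 was also called higher in knockout-control than in wild type (2.87-fold), and Slc36a2 lower in the siRNA step (2.02-fold).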

How the data were processed

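Biotin-labelled total RNA of 6 samples was measured on 1-colour oligonucleotide arrays, per the labels. The authors deposited 1 linear intensity per probe set and array. Software and scaling: not given in the sources used here. Array medians lay between 220.9 and 242.7 and no further scaling was applied. Cells holding the word null (5285) or nothing (870) were kept as missing, and no member had one. Names came from the platform's 2016 annotation, brought up to date through a GRCm38 gene table: 34945 had 1 symbol, 932 several and 9160 none here. Probe sets with 1 symbol and a mean log2(intensity + 32) at or above the 40th percentile, 22731 in all, were fitted together with limma 3.58.1 (R 4.3.3): group means over the 6 arrays, eBayes with 3 residual and 5.82 prior degrees of freedom, and Benjamini-Hochberg adjustment. The procedure was tested on simulated data. Precision is limited by how few arrays there are; permuting 2 against 2 arrays gives p = 0.333 at best, so no exact test was used. Each gene of the 11 lists was represented by its brightest probe set. Named genes were all members, Ppargc1a, Ppargc1b and Ucp1, up to 4 called genes per list and comparison with the largest change, and the 3 genes most like each called member; Eif2s3y and those marked in the text were chosen after their values were seen. The members and lists were chosen with earlier results of these data known. Alternatives changed the pseudocount, filter, normalization, moderation, features, samples and replicate block. Replicate numbers did not pair the samples by the check given with the alternatives.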

Additional observations from a re-analysis of the deposited data

How the results depend on the processing

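With 2 arrays a group, the counts of called members depended on the settings, and so did the sizes of some differences. With each array left out, Prdm16 1440745_at ran from -0.93 to -0.05 in the siRNA step. Ebf2 1418494_at ran from -1.60 to -1.47 between wild type and knockdown cells. Between wild type and knockout-control the count of 7 became 1 (Lhx8, not among the 7) with no filter on dim probe sets, 4 with a filter at the 60th percentile (10 members tested), 2 with 1 probe set per gene (8 members tested) and 0 to 10 with each array left out. Between knockout-control and knockdown cells the count of 0 became 1 in each of 3 settings (a pseudocount of 100, the filter at the 60th percentile, and moderation by trend and robust fitting), 3 after quantile normalization and 0 to 5 with each array left out. Between wild type and knockdown cells the count of 12 became 6 with no filter (5 of the 12 and Lhx8), 5 with a filter at the 60th percentile, 4 with 1 probe set per gene and 6 to 14 with each array left out. The other settings kept each count within 1.5 times, apart from the blocks that follow. Tighter filters and 1 probe set per gene test fewer members; the cause of the other shifts was not tested. With the replicate number as a block the counts were 2, 0 and 7 in the same order, with 3.33%, 0.0748% and 5.71% of all probe sets called. Same-numbered arrays deviated with correlations of 0.188, -0.113 and -0.496 between pairs of groups, so the numbers were not taken to pair the samples. With the knockdown numbers crossed, chosen after seeing the data, the counts were 9, 4 and 14, with 14.4%, 4.46% and 19.5% of all probe sets called.

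Differences near 0 changed sign in some settings, and none of the values given here passed. In the siRNA step, leaving out each array in turn gave -0.07 to 0.39 for Zic1 1439627_at, -0.07 to 0.14 for Ehmt1, -0.18 to 0.04 for Ctbp1 and -0.55 to 0.27 for Ctbp2 1434705_at, with 0.09 for the latter without knockout-control array 2. Between wild type and knockout-control the same range was -0.04 to 0.04 for Ctbp1 and -0.10 to 0.08 for Ctbp2 1422887_a_at, and between wild type and knockdown cells it was -0.18 to 0.04 for Ctbp1. Median scaling put Ctbp1 at 0.00 in the siRNA step and at -0.02 between wild type and knockout-control. Quantile normalization put Ctbp1 at 0.07 between wild type and knockdown cells and Ctbp2 1422887_a_at at 0.03 between wild type and knockout-control. The cause of these changes was not tested.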
